A study of Mus musculus with 4 samples.

Results

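Uninduced C3H10T1/2 cells given an siRNA against DNMT1 were compared with uninduced cells given a control siRNA. C3H10T1/2 is an established mouse embryonic mesenchymal line with the capacity to become osteoblasts, chondrocytes, adipocytes or myocytes in culture. Both dishes had been transfected for 48 h and received no osteoblast medium. Poly(A) RNA was sequenced from 1 library of each, called control and siDNMT1. The other 2 libraries of the series, OB and siDNMT1_OB, had the same transfections followed by 3 days of osteoblast induction with dexamethasone, 50 µM ascorbic acid and 10 mM glycerophosphate. All 4 libraries are of the same cell line, and an siRNA lowers its target for a limited time without removing the gene. The members are the genes with a mean of at least 1 CPM, which puts each count on the scale of its library's total over the 4 libraries, 13233 of the 54532 genes in the count table. With 1 library per side no difference has a replicate check, so no p-value for the conditions is given.

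DNMT1 is the maintenance DNA methyltransferase. Working with UHRF1, which finds hemimethylated CpG sites, it restores their methylation in dividing cells. The enzyme is known for keeping imprinted alleles, germline genes and repeated elements silent, and double-stranded RNA from repeats can switch on interferon-stimulated genes. Lineage genes of mesenchymal cells are also known to carry methylation in their promoters.

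The control library held 27367792 counts and siDNMT1 held 25608719. Folds are ratios of TMM-scaled CPM, and log2 fold changes were computed with a prior of 2 counts, siDNMT1 over control. Brackets give exact (Clopper-Pearson) 95% intervals, which cover counting error only. A gene was called higher or lower when it differed at least 2-fold and its reads passed an exact binomial test with a Benjamini-Hochberg adjusted p under 0.05. That test compares these libraries, not the conditions. Where counts are given below, the control value comes first. Most defining markers of other cell types were at or near 0, with a few of them measured at higher counts. The summed CPM of 13 haematopoietic markers was 12.8 in control and 10.8 in siDNMT1, with 2 markers passing the CPM filter, Cd14 at 277 and 189 counts, and Adgre1 at 0. The 15 neural and glial markers summed to 45.1 and 49.9 CPM and 4 passed, among them Stmn2 at 787 and 723 counts and Tubb3 at 217 and 360, while Snap25 and Sox10 were at 0. None of 13 epithelial markers passed it. The 18 fibroblast and mesenchymal markers summed to 37834 and 45183 CPM, with Fn1 at 187183 and 284492 counts. Of these 16 passed with a median log2 fold change of 0.06, 7 were below 0, and Ly6a (3931 and 1812 counts) and Twist2 (222 and 91) were called lower. Of 11 endothelial markers, 3 passed and summed CPM was 7.48 and 13.3. In siDNMT1, Tek had 152 counts against 51 and Erg 132 against 31, while Egfl7 had 48 against 98, Pecam1 4 against 8 and Cdh5 3 against 1.

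Dnmt1 itself was 2.01-fold lower and of the other methylation machinery genes only Gadd45a was called. Dnmt1 had 7195 counts in control and 3375 in siDNMT1, which is 265 and 132 CPM. Its log2 fold change was −1.01 [−1.07, −0.95], and it was 1 of the 2 called genes among 21 machinery genes tested. Gadd45a, a stress gene linked to active demethylation, had 419 and 880 counts, or 1.15 [0.98, 1.32] on the log2 scale. Gadd45a overlaps an annotated gene on the opposite strand. The de novo methyltransferases Dnmt3a and Dnmt3b had log2 fold changes of −0.06 and 0.32. For Uhrf1 the counts were 5505 and 4219, a log2 fold change of −0.30. Hells, a chromatin remodeller needed for methylation, stood at −0.48. The dioxygenases that oxidise 5-methylcytosine had 0.36 for Tet1, 0.31 for Tet2 and −0.25 for Tet3. The median over the machinery was 0.06.

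Across all members the libraries were close. The median log2 fold change was −0.00 with an SD of 0.42, and 85.5% of genes lay within 0.5 of 0. Of the 13233 genes, 246 were called higher (1.86%) and 176 lower (1.33%). A change of 4-fold or more was seen in 30 of the higher and 14 of the lower genes. Fewer than 50 counts in both libraries lay behind 63 of the higher and 27 of the lower calls. Some genes passed the CPM filter only through the induced libraries. With the filter over the 2 uninduced libraries alone there were 212 higher and 171 lower calls. Of the called genes named below, Oas2, Dhrs3, Gpr17, Robo2, Cacna1h, H19, Tex15, Lpl and Hey2 among the higher and Igfbp5 and Pth1r among the lower averaged under 1 CPM in the uninduced pair, so the list counts that include them rest partly on that filter.

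**Figure D1:**
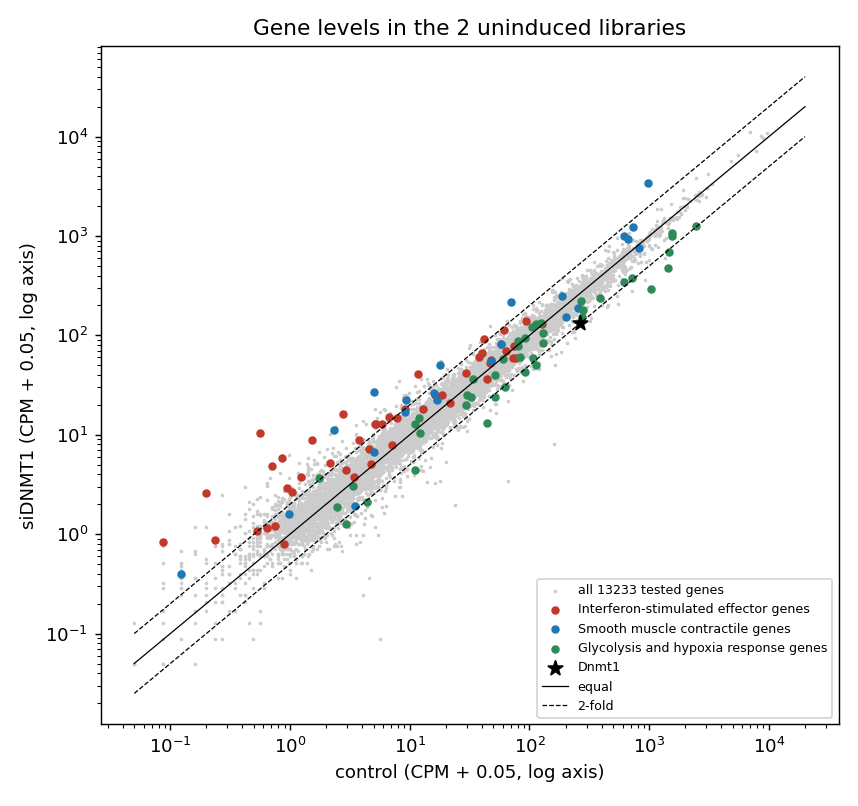
Level of each of the 13233 tested genes in siDNMT1 against control, both as CPM plus 0.05 on log axes. Each point is 1 gene, 3 gene lists and Dnmt1 are marked, the solid line is equality and the dashed lines mark a 2-fold difference. Interferon effector genes lie above the upper dashed line mainly at the low end, while Ldha, Aldoa and other glycolysis genes fall below the lower line at the abundant end.

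Among the genes furthest from 0 outside the groups below, Pawr, which encodes the pro-apoptotic protein PAR-4, had 10 and 75 counts (2.75 [2.03, 4.11]). Gpr17, a G protein-coupled receptor, had 4 and 29 counts, and it overlaps Lims2 on the opposite strand. In the other direction Sprr1a, a cornified envelope precursor, had 122 and 8 counts (−3.55 [−5.09, −2.82]). Cst6, a cysteine protease inhibitor, had 103 and 20, and Gda, a guanine deaminase, had 96 and 19. Msln, a surface protein of mesothelium, had 152 counts in control and 1 in siDNMT1, with an interval for the log2 ratio of −12.48 to −4.67. Of 14 mesothelial markers 3 passed the filter. The other two that passed were not called, Igfbp2 with 39 and 64 counts and Krt7 with 16 and 22. Under the filter Bnc1 had 17 and 3 counts and Krt19 had 8 and 2, and Wt1 and Upk1b were at 0 in both libraries.

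A short word in the 3′ UTR, picked on these same fold changes, was more frequent among the lower genes than among all genes. It was held by 38 of the 154 lower genes with a 3′ UTR read (24.7%), against 5.56% of all genes read. The word is shown first because it recurs in several of the groups described afterwards. Each 7-base word was read in the 3′ UTR of 1 transcript per gene for 11575 genes, of which 1.33% were called lower. Of 16384 possible words, 12181 occurred in at least 300 genes and were ranked by the difference in median log2 fold change between genes with and without the word. The lowest was GCCAATA, held by 643 genes, with a difference of −0.16. The next were CCAATAA at −0.08 and CCAATAT at −0.04, each of which overlaps it by 6 letters. Over all ranked words the differences had a median of 0.026 and an SD of 0.011. The highest was GAACGTG at 0.099. Since GCCAATA was picked on these fold changes, its shares among lower genes follow partly from that choice and are not separate support. Dnmt1 holds the word once, in exon 19 of 39 upstream of its 3′ UTR, at chr9:20922867-20922887 on the minus strand of GRCm38. That 21-base stretch is letter for letter the target strand of 1 of the 2 DNMT1 siRNAs listed in the study's methods, which do not say which of them the sequenced cells received. Within the stretch the word spans positions 14 to 20, the bases that would pair with bases 2 to 8 of a guide strand, its seed. As background, small RNAs in the silencing complex contact partially matched mRNAs mainly through the seed, and an A opposite guide base 1 is a known feature of such sites. The stretch of Dnmt1 and the windows of 10 called lower genes follow, 5′ to 3′. These genes were chosen after their values were seen, as holders that are abundant or belong to a complex described below. Capitals mark the word, and the A after it where there is one.
Dnmt1: gcaaagagtatgaGCCAATAt
Aldoa: cttccagcccactGCCAATAA
Msn: gttctatttcagtGCCAATAA
Gsn: tttggaaatgaaaGCCAATAA
Ctsb: aaggaatgtctgtGCCAATAA
Mcm7: acttttttattctGCCAATAA
Cox7a2: tgtattaactgctGCCAATAA
Atp5e: ataaattgactatGCCAATAA
Npc2: agttttcattaaaGCCAATAc
Tgfbr2: gatttttacaacaGCCAATAA
Imp3: accctttcctaatGCCAATAA

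The A after the word is present in all of these windows but those of Dnmt1 and Npc2. Aldoa, the glycolytic aldolase, carries its copy at base 160 of a 183-base 3′ UTR on chromosome 7. Msn encodes moesin, which links actin to the membrane, and its copy lies at base 1895 of 1918 on the X chromosome. In Gsn, which encodes the actin-severing protein gelsolin, the copy lies at base 202 of 226 on chromosome 2. Msn had 24936 counts in control and 9214 in siDNMT1, a log2 fold change of −1.35 [−1.39, −1.32]. Gsn had 19419 and 7101, or −1.37 [−1.41, −1.33].

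The size of the shift followed the position and form of the word. Of 261 genes with the word followed by A in the 3′ UTR, 26 were called lower (9.96%) and 2 higher, and their median was −0.21. Of 382 genes with the word and another base after it, 12 were called lower (3.14%) and 4 higher, with a median of −0.11. Among 715 genes with the word only upstream of the 3′ UTR, 9 were called lower (1.26%) and the median was −0.02. For the 10217 genes without it, 107 were called lower (1.05%) with a median of 0.00. Among lower genes, the abundant ones held the word most often. Of 47 lower genes with at least 1000 control counts, 24 (51.1%) held the word in the 3′ UTR, against 6.26% of all 5560 such genes. Of 107 lower genes with fewer control counts, 14 (13.1%) held it, against 5.56% of all genes read, whatever their counts. Among 206 higher genes, 6 (2.91%) did. The corresponding word of the other listed DNMT1 siRNA, GGCAGCA, is absent from the Dnmt1 transcript read here. It occurred in 1684 genes with a difference of 0.01. The corresponding word of the listed control siRNA, TGTCACG, occurred in 351 genes with 0.04. The median difference over all ranked words was 0.026. GAACGTG, the word with the highest difference, also lies within the listed control siRNA sequence. What part the word has in the lower levels was not tested.

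**Figure D2:**
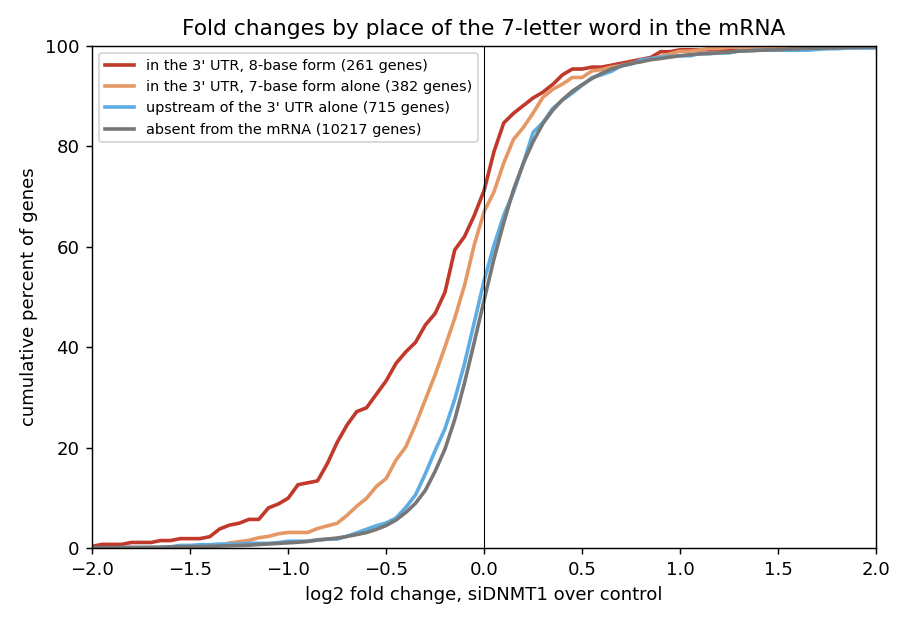
Cumulative share of genes (vertical axis, percent) by log2 fold change (horizontal axis, siDNMT1 over control), for genes grouped by the 7-base word that Dnmt1 also holds: in the 3′ UTR in its 8-base form, with the A, in its 7-base form alone, upstream of the 3′ UTR alone, or nowhere. The 2 curves for the 3′ UTR lie to the left, with medians of −0.21 and −0.11, and the other curves centre near 0. The word was picked on these same fold changes.

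In 4 lists of respiratory, replication, ribosome biogenesis and lysosome genes, the few called lower members were word holders. Their shares of called genes are small, near the 1.33% of all genes for replication and ribosome biogenesis, and are not read as results about the lists. These lists were picked after their values were seen, because their calls hold the word. The lower calls of the NRF2, AHR, IGF, WNT and serpin lists described below lack it. Among cytosolic ribosomal proteins the sole call of 83, Rplp1, had 36867 and 15360 counts (−1.18) and lacks the word too. Of its 50-base words 61% occur in another gene. Of 75 nuclear genes of the respiratory chain tested, 2 were called lower, Cox7a2 and Atp5e, and these are the only holders in that list. Cox7a2, a cytochrome c oxidase subunit, had 1783 and 555 counts (−1.60 [−1.74, −1.46]). Atp5e, the epsilon subunit of ATP synthase, had 2385 and 895 (−1.33 [−1.44, −1.22]). The list median was −0.17 and 71 of its 75 genes were below 0. Of 60 ribosome biogenesis genes the sole call was the sole holder, Imp3, a protein of the U3 snoRNP, with 842 and 367 counts (−1.11). The 48 lysosome and autophagy genes had 2 lower calls, both holders. Npc2, which carries cholesterol out of the lysosome, had 8664 and 3590 counts (−1.19), and the protease gene Ctsb had 14690 and 6364 (−1.12). Ctsb overlaps Fdft1 on the opposite strand. A further holder in that list, Cln3, went the other way with 33 and 62 counts and was not called.

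Among the replication genes 1 of the holders, Mcm7, stood apart. Of 61 replication and S-phase genes tested, 58 lay below 0, with a median of −0.34, and 1 was called. That gene, Mcm7, encodes a subunit of the MCM2–7 helicase and had 4403 and 1302 counts, a log2 fold change of −1.67 [−1.77, −1.59]. Mcm7 overlaps Ap4m1 and Cops6 on the opposite strand. The other subunits, Mcm2 to Mcm6, lay between −0.45 and −0.29, with Mcm2 at 4480 and 3100 counts and Mcm3 at 4425 and 3413. The list has 5 holders, of which Dtl, Timeless, Mcm6 and Tyms had −0.59, −0.41, −0.36 and −0.25, within the range of members without the word. The median without the holders was −0.34 as well. The 70 mitosis and G2/M genes had a median of −0.06 and no call.

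**Figure D3:**
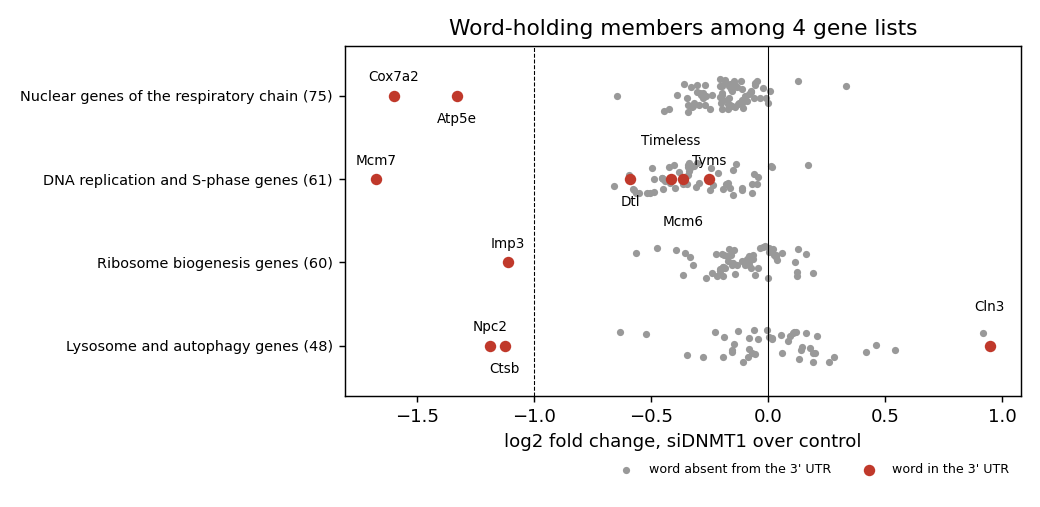
Log2 fold change (siDNMT1 over control) of each tested gene of 4 lists: respiratory chain, replication and S phase, ribosome biogenesis, and lysosome and autophagy. Each point is 1 gene and word holders are marked. The called lower genes, among them Mcm7 at −1.67 and Cox7a2 at −1.60, stand apart from the rest of their lists.

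Of the gene lists, interferon-stimulated effectors had the most higher calls. Of 64 effector genes listed, 48 were tested, and 19 were called higher and none lower. Their median was 0.76 and 43 were above 0, against 49.7% of all tested genes. Most started from low counts. Ifi44, an interferon-induced cytoplasmic protein, had 14 counts in control and 263 in siDNMT1 (4.12 [3.54, 5.20]). For Ddx60, a helicase that assists RNA sensing, the counts were 4 and 66 (3.56 [2.70, 6.04]), and for Oas2, which makes the 2-5A activator of RNase L, 1 and 20 (interval of the log2 ratio 1.76 to 9.78). Ifit1, which binds foreign 5′ ends, had 74 and 417 counts (2.54 [2.22, 2.95]). Isg15, a ubiquitin-like modifier, had 40 and 225 (2.51 [2.08, 3.10]). Bst2, or tetherin, was more abundant, with 314 and 1054 counts and 1.82 [1.65, 2.02]. The lowest member was Pml at −0.37.

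The GTPases that attack intracellular parasites had the highest median of the lists with at least 5 tested genes. Of 13 tested out of 22 listed, 8 were called higher, none lower and all 13 were above 0, with a median of 1.45. The lowest of them, Gm4951 at 0.05, had 3 counts in each library, so its sign rests on the scaling. It passed the CPM filter only through the induced libraries. Iigp1 had 6 and 62 counts (3.06 [2.25, 4.95]) and Gbp9 had 12 and 50 (1.96 [1.21, 3.19]). Irgm1, a regulator of the family, had 1047 and 2196 (1.15 [1.04, 1.26]). Tgtp1 and Tgtp2 had 1.82 and 1.84, but 91% and 89% of their 50-base words occur in another gene, so their reads could not be told apart.

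Upstream of these genes the pathway split into parts that are themselves induced and parts that were near 0. The median of 31 sensors and signalling genes was 0.16, or 0.06 without opposite-strand overlaps, and 5 were called higher. Among them were Usp18, the protease that removes ISG15 (25 and 158 counts, 2.64), Irf7 (61 and 186, 1.66), Irf9 (491 and 1418, 1.61 [1.46, 1.76]) and Dhx58 (44 and 88, 1.05). IRF9 is the DNA-binding part of the factor that drives these genes. Irf7 overlaps Phrf1 on the opposite strand. The receptor genes Ifnar1 and Ifnar2 had 0.20 and −0.22, the kinases Jak1 and Tyk2 −0.08 and 0.16, and the adaptor Mavs −0.30. Antigen presentation by MHC class I moved less, with 2 of 22 genes called higher and a median of 0.14. These were H2-T23 with 283 and 555 counts and H2-Q4 with 46 and 101. The peptide transporter Tap1 had 254 and 470 (0.96).

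The interferon response element was more frequent among promoters of the 3 interferon lists than among all promoters. RefSeq promoter sequence (GRCm38.p6, 250 bases before to 50 after the start) was matched for 9594 tested genes and searched on both strands for GAAA followed by any 2 bases and a further GAAA. It was found in 16 of 36 effector promoters (44.4%), 8 of 9 GTPase promoters (88.9%) and 6 of 27 sensor and signalling promoters (22.2%), against 3.65% of all. Of promoters of called genes, 21 of 163 higher (12.9%) and 6 of 121 lower (4.96%) held it. Windows of 6 called genes with it are shown, picked after their values were seen from 13 called genes of the interferon lists with the element, to show its different arrangements. They read 5′ to 3′ on the gene's own strand, with the element or its complement in capitals.
Isg15: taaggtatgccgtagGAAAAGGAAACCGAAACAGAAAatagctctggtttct
Ifit1: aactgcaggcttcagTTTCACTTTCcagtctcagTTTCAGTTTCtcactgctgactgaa
Bst2: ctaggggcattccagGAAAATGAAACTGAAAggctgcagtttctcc
Ddx60: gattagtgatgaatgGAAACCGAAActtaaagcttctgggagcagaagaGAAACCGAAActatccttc
Irgm1: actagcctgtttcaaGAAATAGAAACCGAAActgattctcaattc
Igtp: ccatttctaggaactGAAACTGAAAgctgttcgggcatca

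The windows lie at chr4:156200860-156200911 (minus strand) for Isg15, chr19:34640770-34640828 (plus) for Ifit1, chr8:71537572-71537617 (minus) for Bst2, chr8:61928019-61928086 (plus) for Ddx60, chr11:48871421-48871465 (minus) for Irgm1 and chr11:58199507-58199546 (plus) for Igtp. Copies overlap in Isg15, Bst2 and Irgm1 and lie apart in Ifit1 and Ddx60. Promoters of the effectors and GTPases are also poor in CpG. The median ratio of observed to expected CpG was 0.26 for effector genes and 0.34 for the GTPases, against 0.80 for all. For sensor and signalling genes the ratio was 0.75, near that of all. It was 0.58 for both higher and lower called genes. A ratio under 0.4 was found in 37.4% of higher and 33.9% of lower promoters, against 10.2% of all. A match is a description of these letters and says nothing of a bound factor.

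Smooth muscle contractile genes formed the next group. Of 22 tested out of 30, 6 were called higher and none lower, with a median of 0.71, and 18 were above 0. Acta2, smooth muscle α-actin, was the most abundant of the calls in counts, with 26761 in control and 87394 in siDNMT1, a 3.46-fold difference (1.79 [1.77, 1.81]). Lmod1, which nucleates actin filaments, had 134 and 694 counts (2.44 [2.19, 2.73]). Itga8, an integrin of contractile cells, had 62 and 286 (2.25 [1.89, 2.71]). Myl9, the regulatory myosin light chain, had 1887 and 5580 (1.65 [1.57, 1.72]), and Actg2, smooth muscle γ-actin, had 481 and 1300 (1.51). Aoc3, an amine oxidase of vascular smooth muscle, completed the calls with 249 and 576 (1.28). Among members that were not called, Tagln had 25 and 40 counts, Cnn1 had 2 and 9, and Sncg had a log2 fold change of −0.85. The CArG box, the site of serum response factor, was found in 3 of 17 of these promoters (17.6%), against 1.62% of all.

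Striated muscle genes were mostly too low to test, with 16 of 54 passing the filter. Of these, 4 were called higher and none lower, with a median of 0.23, which was smaller without the filter. Mef2c, a muscle and bone transcription factor, had 334 and 938 counts (1.57 [1.39, 1.76]). Hdac9, a class IIa deacetylase that binds MEF2 factors, had 54 and 183 (1.80). Dmd, dystrophin, had 17 and 93 (2.39), and Myom1, of the sarcomere's M-band, had 46 and 171 (1.93). Myom1 overlaps Myl12a on the opposite strand.

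Of the gene lists, glycolysis and hypoxia response had the most lower calls. Of 41 tested, 11 were called lower and 1 higher, with a median of −0.56. Without the word holders 10 were called lower and the median was −0.52. Ldha, lactate dehydrogenase A, had 38767 and 12197 counts (−1.59 [−1.62, −1.56]). Pgk1, phosphoglycerate kinase, had 39577 and 17695 (−1.08), although 67% of its words occur in a pseudogene. Ak4, a mitochondrial adenylate kinase, had 1202 and 337 (−1.75 [−1.93, −1.58]). Aldoa, the holder shown above, had 27824 and 7470 (−1.81 [−1.85, −1.78]). The other calls were Angptl4 (−1.32), the lactate exporter Slc16a3 (−1.20), Fam162a (−1.17), Higd1a (−1.12), the pyruvate dehydrogenase kinase Pdk1 (−1.09), Ankrd37 (−1.04) and the mitophagy receptor Bnip3 (−1.03). Just short of the threshold, Pkm had 66869 and 32625 counts (−0.95) and the glucose transporter Slc2a1 had 2929 and 1532 (−0.85). Gapdh stood at −0.52.

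The regulators of that response differed from each other. Hif1a, itself a word holder, had 3541 and 2124 counts (−0.65 [−0.73, −0.58]) and was not called. Epas1, which encodes HIF-2α, was the 1 higher call, with 46 and 93 counts (1.06 [0.57, 1.64]). Vegfa had 0.21. The core of the hypoxia response element, ACGTG on either strand, was found in 26 of 37 promoters of the list (70.3%), against 29.6% of all.

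**Figure D4:**
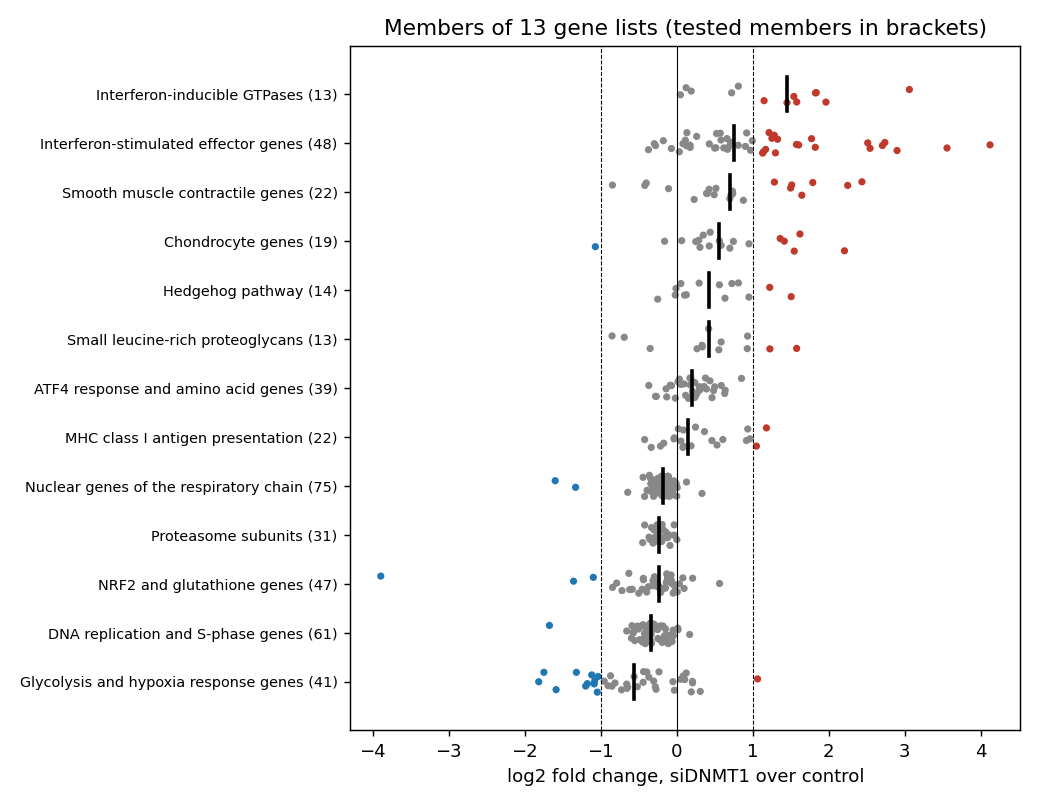
Log2 fold change (siDNMT1 over control) of each tested gene in 13 gene lists, 1 row per list. Each point is 1 gene, coloured where it lies at least 2-fold from control (dashed lines), whether or not it passed the read test, and the bar is the list's median. The interferon and smooth muscle rows lie to the right and the glycolysis row to the left of 0.

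Genes of the NRF2 and AHR lists leaned lower. In contrast, 12 of 15 cytochrome P450 genes tested were above 0, with a median of 0.16 and no call. Of 47 NRF2 and glutathione genes tested, 3 were called lower, none higher, and 41 were below 0, with a median of −0.23. Gsta1 had 108 and 5 counts (−3.89 [−6.00, −3.08]), with 85% of its words in another gene. Gsta4, the glutathione transferase for 4-hydroxynonenal, had 1939 and 714 (−1.36 [−1.48, −1.23]), and Mgst1, a membrane-bound transferase, had 93 and 40 (−1.10). Nqo1, a quinone reductase often used as the readout of NRF2, had 4310 and 2354 (−0.79), while Nfe2l2, which encodes NRF2, had −0.14 and Hmox1 −0.13. The antioxidant response motif TGACNNNGC was found in 12 of 40 promoters (30.0%), against 16.8% of all. Other lists lay on both sides of that share, with ATF4 and amino acid genes at 10 of 31 (32.3%). Among promoters of called lower genes it was 21 of 121 (17.4%). The motif is therefore not particular to this list. Among 21 AHR targets and xenobiotic enzymes, Aldh3a1, an aldehyde dehydrogenase, had 651 and 49 counts (−3.60 [−4.10, −3.23]) and Ces2g, a carboxylesterase, had 363 and 142 (−1.26), while the monooxygenase Fmo1 was higher with 34 and 93 (1.48). Retinoid enzymes went in opposite directions. Rdh10, which makes retinaldehyde, had 1265 and 450 counts (−1.40), and Dhrs3, which reverses that step, had 3 and 29 (interval of the log2 ratio 1.67 to 5.71).

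Other stress programs gave few calls. The 39 ATF4 and amino acid genes had a median of 0.21 and no call, with Pycr1, of proline synthesis, highest at 1018 and 1737 counts (0.85). The 24 heat shock genes had a median of −0.20 and 1 lower call, Hspa4l, at 2812 and 1251. Of 31 proteasome subunits 30 lay below 0, with a median of −0.24, no call and Psmc4 lowest at −0.45. The 25 ER chaperone genes had a median of −0.05 and the 40 p53 targets 0.09, with no call in either list. Among 14 metallothionein and iron genes the sole call was ceruloplasmin (Cp), higher with 357 and 793 counts (1.23).

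Cartilage genes were mostly above 0 and bone genes were divided. Of 19 chondrocyte genes tested, 4 were called higher and 1 lower, with a median of 0.56 and 17 above 0. Those above 0 include scarce genes such as Cnmd, with 1 and 2 counts, and Col9a2, with 2 and 8. Col10a1, the collagen of hypertrophic cartilage, had 16 and 77 counts (2.21 [1.56, 3.23]) and overlaps Nt5dc1 on the opposite strand. Col11a2, a fibrillar cartilage collagen, had 252 and 638 (1.41 [1.21, 1.64]). The matrilins Matn4 and Matn3 had 44 and 132 (1.62) and 20 and 59 (1.55). Sox9, the master factor of cartilage, was not called, with 2549 and 4038 counts (0.75 [0.67, 0.82]). The lower call was Pth1r, the PTH receptor, with 29 and 12. Among 21 osteoblast genes 2 were called higher and 4 lower, with 11 above 0 and a median of 0.12, which became −0.08 without the CPM filter. Spp1, osteopontin, had 14862 and 5270 counts (−1.41 [−1.46, −1.37]). Twist2, a factor that restrains bone formation, had 222 and 91 (−1.19) and overlaps a predicted gene on the opposite strand, and Phex, a phosphate regulator and word holder, had 256 and 116 (−1.05). Pth1r, on this list too, was the other lower call. Dlx6, a homeobox gene of bone, was higher with 24 and 49, as was Col11a2. Runx2, the master factor of bone, had 0.35. In the adipocyte list 2 of 25 were called higher, the fat-cell factor Cebpa with 78 and 189 counts (1.34) and the lipase Lpl with 10 and 25.

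In the wider matrix, 4 of 31 collagens were called higher and none lower, with a median of 0.19. Besides those of cartilage they included Col27a1, a fibrillar collagen, with 221 and 898 counts (2.09 [1.89, 2.32]), and Col8a2, a network collagen, with 262 and 610 (1.29). Of 13 small leucine-rich proteoglycans 2 were called, podocan (Podn) with 44 and 128 counts (1.58) and fibromodulin (Fmod) with 35 and 80 (1.23). Their median was 0.42, while decorin (Dcn) stood at 183 and 95 (−0.85). Among 19 integrins the sole lower call was Itgb7, the β7 chain known from lymphocyte homing, with 377 and 84 (−2.06 [−2.44, −1.74]). Besides Itga8, the collagen receptor chain Itga1 was called higher, with 163 and 321 (1.05). Of 40 matrix glycoproteins 3 were called lower, with a median of 0.02. Besides Spp1 these included Efemp1, a fibulin, with 790 and 314 counts (−1.24). The higher call was thrombospondin 3 (Thbs3), with 490 and 950 (1.03), which overlaps Mtx1 on the opposite strand.

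Signalling pathways each had a few called members. Among all tested genes 1.86% were called higher and 1.33% lower. Counts near these shares are not read as results about a pathway. In the Hedgehog list 2 of 14 were called higher, with a median of 0.43. Gli1, both effector and readout of the pathway, had 166 and 449 counts (1.51 [1.26, 1.78]). Scube3, a secreted protein of the SCUBE family, had 313 and 693 (1.22) and overlaps another gene on the opposite strand. The receptor Ptch1, a further target of the pathway, had 616 and 1023 (0.81), the co-receptor Boc 794 and 1450 (0.95), and Gli2 298 and 467 (0.73). None of these passed 2-fold. In the NOTCH list the targets Hey1, with 37 and 112 counts (1.63 [1.13, 2.26]), and Hey2, with 16 and 33, were the 2 calls among 26. The ligand Jag1 had 1407 and 2595 (0.96) and the receptor Notch3 had 1566 and 992 (−0.58).

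Growth factor axes were mixed. For FGF, the receptor Fgfr2 had 205 and 777 counts (1.99 [1.78, 2.23]) and the inhibitor Spry1 had 62 and 157 (1.39), the 2 calls among 22. For IGF, the binding proteins Igfbp3 and Igfbp5 were called lower, with 145 and 24 counts (−2.42 [−3.20, −1.88]) and 29 and 8 (−1.55). Pappa2, a protease that cleaves such binding proteins, was called higher with 42 and 142 (1.79 [1.33, 2.37]). For TGF-β and BMP, 3 of 50 were called higher and 1 lower, with a median of 0.06. The lower count is near the 1.33% of all tested genes called lower, beside 1.86% called higher. The higher calls were the activin antagonist Fst (374 and 928 counts, 1.39), the decoy receptor Bambi (50 and 109, 1.17) and the activin subunit Inhba (1164 and 2314, 1.07). The lower call was the receptor Tgfbr2, a word holder, with 4133 and 1593 (−1.29 [−1.38, −1.21]). For WNT, 3 of 47 were called higher and 2 lower. Rspo3, an enhancer of WNT signals and a word holder that went up, had 389 and 808 counts (1.13), Sfrp2 had 112 and 227 and the receptor Fzd4 had 530 and 1037. Its lower calls were the R-spondin receptor Lgr6 (219 and 76, −1.42) and Dkk3 (292 and 109, −1.32).

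Among cell surface families linked to neurons, protocadherins and calcium channels were above 0 in most members and axon guidance genes were divided. Of 25 tested clustered protocadherins, 24 were above 0, with a median of 0.46, which was smaller at a mean of at least 5 CPM. The 2 calls were Pcdhb9 with 16 and 55 counts (1.74 [1.04, 2.77]) and Pcdhb11 with 22 and 55 (1.32). The 3′ UTR word is held by 10 of the 25, which apart from Pcdhb19 are genes of the γ cluster. Of these Pcdhgc3 had 1870 and 1653 counts (−0.10) and the others were above 0. As background, the γ genes share their last exons, so their 3′ UTR is largely the same sequence. As background, these adhesion genes stand in tandem clusters, and promoter methylation is known to keep the isoforms that a cell does not use silent. Of 11 calcium channel genes 3 were called higher, with a median of 0.51. Cacna1a had 227 and 506 counts (1.23 [1.01, 1.47]), Cacna1b 30 and 62, and Cacna1h 2 and 12. Cacna1h passed the CPM filter only through the induced libraries. Among 44 axon guidance genes 4 were called higher and 2 lower, with a median of 0.04 and 25 above 0. The semaphorin receptor Plxnb1 had 109 and 348 counts (1.74 [1.44, 2.08]), Slit3 19 and 44, and the Slit receptors Robo1 24 and 51 and Robo2 3 and 16. The lower genes were Epha1 with 97 and 38 and Sema3b with 153 and 70. Of 340 zinc finger genes named Zfp, 245 were above 0, with a median of 0.14 and 2 higher calls, Zfp58 with 50 and 100 counts and Zfp991 with 53 and 103.

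Among imprinted and germline genes, which methylation is known to silence, Mest was the call with the most counts. Of 26 tested imprinted genes 2 were called higher, none lower, and 20 were above 0, with a median of 0.28. Mest, a paternally expressed hydrolase gene, had 864 and 2036 counts (1.32 [1.20, 1.44]) and overlaps Copg2 on the opposite strand. H19, a maternally expressed RNA, had 2 and 11 (interval of the log2 ratio 0.35 to 5.76). Peg3 was not called, with 303 and 540 (0.91). Of 47 germline genes, 5 passed the CPM filter and 1 was called, Tex15 with 6 and 18 counts. Their median was 0.14 with 3 of 5 above 0, and the summed CPM of the list was 17.0 in control and 15.8 in siDNMT1.

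Several secreted and epithelial-type families gave lower calls. The proliferins, prolactin-family hormones of growing cells, had 4330 and 205 counts for Prl2c2 (−4.30 [−4.53, −4.12]) and 1790 and 86 for Prl2c3 (−4.27 [−4.63, −3.98]). These paralogs share 88% and 79% of their words with other genes, so they are uncertain as separate genes. Of 13 serpins 4 were called lower and none higher, with a median of −0.45, which became 0.10 without the CPM filter. Serpinb9b had 487 and 87 counts (−2.38 [−2.75, −2.07]) and Serpinb9, a granzyme B inhibitor, 3248 and 1337 (−1.20). Serpinb6b had 127 and 39 and Serpinb1b 117 and 47. Of 9 connexins and aquaporins 2 were called lower, with a median of −0.83. The connexin Gjb5 had 158 and 47 counts (−1.63 [−2.17, −1.19]), and the water channel Aqp1 had 12358 and 5127 (−1.19 [−1.23, −1.14]). Keratins had 2 lower calls among 7, Krt80 with 222 and 85 and Krt88 with 60 and 24. Their median was −0.38, which became 0.53 when genes under 5 CPM were left out. Among 9 S100 genes the sole call was S100a16 with 169 and 73, and S100a6 had 25680 and 13879 (−0.81).

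Inflammatory genes gave lower calls and no higher ones. Of 8 chemokines tested 7 were below 0, with 1 lower call and a median of −0.30, which became −0.56 without the CPM filter. The summed CPM of the 8 was not lower, at 2215 in control and 2411 in siDNMT1, and the 1 member above 0 had 0.15. Ccl2, which attracts monocytes, had 548 and 135 counts (−1.92 [−2.22, −1.66]) and its neighbour Ccl7 had 94 and 51 (−0.78). In the NF-κB and inflammatory list 2 of 27 were called lower, the cytokine Il11 with 54 and 17 (−1.48) and the IL-33 receptor Il1rl1, a word holder, with 3283 and 1182 (−1.39 [−1.49, −1.30]).

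Called genes were spread over the chromosomes, with 0.87% to 3.51% of tested genes called higher and 0.58% to 2.32% called lower on each autosome and the X chromosome. None was called among the 7 tested genes of the Y chromosome and the 23 of the mitochondrial genome. Some were neighbours. Among tested genes in map order, there were 11 runs of 2 higher genes, 6 of 2 lower genes and 2 of 3 lower genes. One of the longer runs was Serpinb9, Serpinb9b and Serpinb1b, and pairs included Robo1 with Robo2, Gsta4 with Gsta1 and Igtp with Irgm2. Genes with at least 10 counts in 1 library and at most 3 in the other were mostly scarce. In siDNMT1 133 genes were off by this measure and 108 were on. Of these 5 and 11 passed the CPM filter, and the median count in the library where they were on was 12.

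The same siRNA comparison after osteoblast induction used 2 other libraries, so it is set beside the uninduced values. In it, 2.35% of the 13233 genes were called higher and 1.35% lower. Dnmt1 had 1931 counts in OB and 2492 in the library labelled siDNMT1_OB, so its level was not lower there. Of the 246 genes higher in uninduced cells, 185 had the same sign after induction, 55 were called higher and 3 lower, with a median of 0.39. Of the 176 lower genes, 140 had the same sign, 39 were called lower and 4 higher, with a median of −0.53. Over all genes 52.2% were above 0. The word GCCAATA again ranked lowest of all words, with a difference of −0.12. The 38 lower genes that hold it had a median of −0.70 with 35 below 0, and the other 138 had −0.48 with 105 below 0.

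By group the pairs differed. Acta2 was as far apart in both, with 25413 and 98223 counts after induction (1.71), and the smooth muscle median was 0.55. Tgfbr2 had 7225 and 3012 there (−1.50). Interferon effectors had a median of 0.23 after induction, against 0.76, with Ifit1 at 903 and 1232 counts. The interferon-inducible GTPases had 0.09, against 1.45, with 8 of 13 above 0 and 1 called higher. Glycolysis genes had a median of −0.07, with Ldha at 6977 and 7292 counts (−0.18), and Spp1 had 4226 and 7261 (0.54). The Hedgehog median was −0.04 with Gli1 at 82 and 98. Replication and S-phase genes had 0.76, against −0.34 in uninduced cells. Mitosis and G2/M genes had 1.04 with 41 of 70 called higher, against −0.06 and no call. These differences between pairs rest on 1 library each and were not tested.

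**Figure D5:**
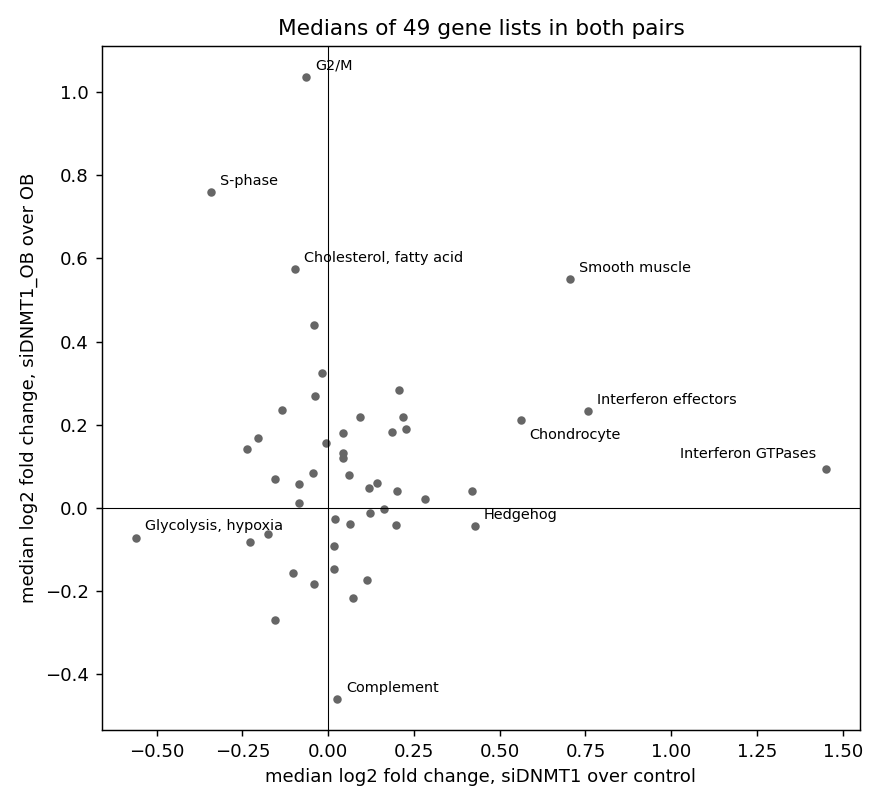
Median log2 fold change of the 49 gene lists with at least 10 tested genes, cell type marker lists left out, in uninduced cells (siDNMT1 over control, horizontal axis) and after induction (siDNMT1_OB over OB, vertical axis). Each point is 1 list. Smooth muscle genes are above 0 on both axes (0.71 and 0.55), and S-phase genes have opposite signs (−0.34 and 0.76).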

How the data were processed

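The authors deposited raw read counts per gene for 4 libraries, in whole numbers and not normalized. Per the study's methods and the submitters' processing notes, reads were trimmed with Trimmomatic, aligned to mm10 with HISAT2 and counted with featureCounts. For the RNA reads, tool versions, strand use and the treatment of reads with several positions are not given in the sources used here. The named kit does not keep strand, so reads of genes that overlap on opposite strands cannot be told apart.

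Counts were scaled with TMM factors over all 4 libraries (edgeR 4.0.16, R 4.3.3) and genes averaging 1 CPM or more were kept. Read tests, intervals and words were computed in Python 3.11.15 with SciPy 1.17.1, numpy 2.4.6 and pandas 2.3.3. Replicates being absent, the quasi-likelihood test could not be run. The floor was 3 counts, and intervals cover counting error only, since the reads carry no molecular identifiers. The design had 59 gene lists and 41 symbol families. Members and lists were chosen with earlier results of these data known. Named genes were Dnmt1, the methylation machinery, the 15 highest and 15 lowest calls and, in each list with at least 3 calls or a median of at least 0.2 in size, the 4 furthest members and up to 4 defining ones. The word-holding genes, Cp, Rplp1, Pcdhgc3, the cell type markers and the called members of lists with fewer calls were named after their values were seen. Genes count as sharing reads where at least 20% of their 50-base words occur in another gene. UTRs and coordinates are from GENCODE on GRCm38 and promoters from RefSeq. Alternatives were other scalings (DESeq2 1.42.0), priors, filters and an assumed replicate spread. Figures were drawn with matplotlib 3.10.9. Some called genes are not reported here.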

Additional observations from a re-analysis of the deposited data

Results flagged for a closer look

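The median log2 fold change of replication and S-phase genes was −0.34 between siDNMT1 and control in uninduced cells and of 0.76 between siDNMT1_OB and OB. Keratins, with 7 tested genes, had −0.38 in uninduced cells and 0.98 after induction. Both were picked out because the pairs had opposite signs. For keratins that depends on the filter, since the uninduced median reversed at a mean of at least 5 CPM. Each pair has 1 library per side, so the difference between the pairs was not tested. Dnmt1 had 1931 and 2492 counts in the induced pair.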

How the results depend on the processing

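No paired analysis was possible because the groups compared share only 1 replicate number, with 1 library each. The 246 higher and 176 lower calls depended most on the filter and on the spread assumed between replicates. Without a filter there were 435 higher and 340 lower, and with a mean of at least 5 CPM there were 108 and 91, since other numbers of genes entered. With the exact test of edgeR and an assumed coefficient of variation of 0.2 between replicates, 35 and 23 remained past the threshold, and with 0.4 there were 0 and 3. Under other scalings, priors, the filter over the 2 libraries and protein-coding genes alone, counts ranged from 182 to 268 higher and from 129 to 180 lower. Leaving out holders of the word, an alternative chosen after seeing the data, gave 240 and 138. The Hedgehog median became 0.60 without genes that overlap another on the opposite strand. The keratin median reversed to 0.53 at a mean of at least 5 CPM and the serpin median to 0.10 without a filter. Of the other values of list medians, 369 moved by less than the median half-width of the members' 95% counting intervals and 7 by more, and all 255 values of named genes stayed within their own. Some within that tolerance still moved by over 1.5 times. Without a filter the median became −0.56 for chemokines, 0.05 for striated muscle genes and −0.08 for osteoblast genes. Without opposite-strand overlaps it became 0.06 for interferon sensors and signalling genes and 0.14 for TGF-β and BMP genes. At a mean of at least 5 CPM it became 0.26 for protocadherins. Beyond the tolerance, the collagen median became 0.30 under either of the first 2 settings. The cause of these shifts was not tested. The median of all genes lay between −0.01 and 0.02 over the scalings. Low counts limit germline, protocadherin and striated muscle genes.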
